A study of Rattus norvegicus with 6 samples.

Results

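The baseline described here is the transcriptome of control rat hippocampal cultures at day in vitro (DIV) 9. All 3 control cultures of a series of 6 were taken, with every one of the 26405 genes in the deposited count table. The counts of the 3 cultures with a knockdown of S-SCAM, the synaptic scaffold encoded by Magi2, were not used. Wild-type hippocampi were dissociated and plated, the cells were transduced at DIV 2 with a lentivirus carrying an empty shRNA vector, and RNA was taken at DIV 9. The methods describe embryonic rats and a vector that also expresses EGFP, and a figure legend names a control shRNA instead of the empty vector. The controls therefore carry a virus, and no culture without virus was analysed here. The cultures are labelled biological replicates and are called cultures 1, 2 and 3 below. With 1 group there is no comparison between conditions and no test was run, so every value is a description, and the SD is over these 3 cultures.

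Dissociated hippocampal cultures hold excitatory pyramidal and granule neurons, GABAergic interneurons and a variable number of glial cells that divide on the coverslip. Around DIV 9 the neurons have axons and dendrites and are still forming synapses. Glutamate acts there through AMPA, NMDA, kainate and metabotropic receptors, and GABA acts through GABA-A channels and GABA-B receptors, each built from subunits whose use changes as neurons mature.

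The libraries held 23357757 counts in culture 1, 13061705 in culture 2 and 24874466 in culture 3. Levels are CPM, the counts of a gene per 1000000 counts of the library, on library sizes scaled by TMM factors of 1.04, 0.94 and 1.02. The files give no transcript lengths, so a long transcript has more counts than a short one of equal abundance, and orders between genes below are orders of counts. Comparisons of 1 gene between cultures do not depend on length. The limit that a count of 0 allows, 3 counts in a library, was 0.123 CPM in culture 1, 0.244 CPM in culture 2 and 0.118 CPM in culture 3. This limit and the intervals below cover counting error only. The cultures were not copies of one library, since chi-square per degree of freedom between their counts was 59.1 to 84.3.

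Magi2 itself (chr4:10987824-11595537 on the build rn5, the build of the deposited coordinates) was present in each culture. It had 82.7 CPM in culture 1, 74.2 CPM in culture 2 and 95.5 CPM in culture 3, a coefficient of variation (CV, the SD as a percentage of the mean) of 12.7%. Its relative Magi3, a scaffold of the same family, had 66.6, 70.4 and 73.9 CPM in cultures 1, 2 and 3. Magi1, the third member, had 55.6, 63.1 and 83.5 CPM. All 3 family members were highest in culture 3, and none ranged as far as 2-fold.

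Of 26405 genes, 7570 (28.7%) had no count in any culture, 5758 (21.8%) had a mean under 1 CPM, and 13077 reached a mean of 1 CPM. There were 12554 genes at or above 1 CPM in every culture. Counts were seen for 17674 genes in culture 1, 16352 in culture 2 and 17618 in culture 3. If cultures 1 and 3 were thinned to the depth of culture 2, they would be expected to show 16929 and 16798 genes, so culture 2 had fewer genes than both also at equal depth.

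The counts were concentrated in a middle class of genes. The 7325 genes between 10 and 100 CPM took 29.4% of the counts, the 2251 genes between 100 and 1000 CPM took 50.8%, and the 73 genes at or above 1000 CPM took 18.2%. The 100 genes with most counts took 20.3% in culture 1 (95% Wilson interval 20.26 to 20.30), 22.6% in culture 2 (22.61 to 22.66) and 20.0% in culture 3 (20.01 to 20.04). The difference between culture 2 and the others was thus larger than counting error. The number of genes needed to reach 50% of the counts was 987, 851 and 949 in cultures 1, 2 and 3.

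**Figure D1:**
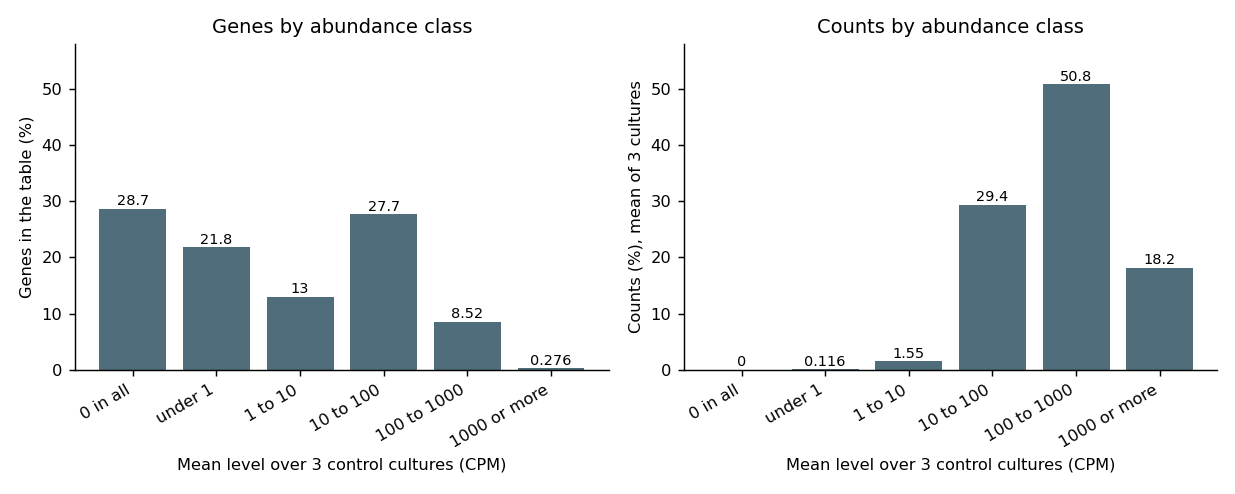
Share of the 26405 genes (left) and of the counts (right, mean of 3 control cultures) in classes of mean level in CPM. The classes from 10 CPM up held 27.7%, 8.52% and 0.276% of the genes and 29.4%, 50.8% and 18.2% of the counts.

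Promoter sequence differed along these classes. Promoters of 300 bases, from 250 before to 50 from the annotated start on, came from RefSeq on the build GRCr8 and were matched by symbol and chromosome to 12586 genes. The letters GGGCGG, the core of the GC box bound by SP1 and related factors, were present on either strand in 15.1% of promoters of genes without a count, in 31.7% of those under 1 CPM, in 55.1% between 1 and 10 CPM, in 64.8% between 10 and 100 CPM and in 72.9% between 100 and 1000 CPM, against 52.5% of all 12586. At or above 1000 CPM the share was lower again, at 59.0% of 39 nuclear genes. Median GC content from the lowest to the highest class was 47.3%, 53.0%, 59.0%, 61.7%, 64.0% and 64.3%. A promoter was matched for 1387 of 7570 genes without a count and for 5125 of 7325 between 10 and 100 CPM. The letters TATAAA, read on the gene's strand in the 50 bases before the start, went the other way up to 100 CPM. They were present in 7.35% of promoters without a count, 6.03% under 1 CPM, 2.37% between 1 and 10 CPM, 0.82% between 10 and 100 CPM and 1.54% between 100 and 1000 CPM, against 2.90% of all. Of the 39 matched nuclear genes at or above 1000 CPM, 4 had TATAAA, a share of 10.3%. The palindrome TGACGTCA, the cyclic AMP response element, was in 0.649% of promoters without a count and in 3.64% between 100 and 1000 CPM. CCAAT, on either strand, showed no such course, with 41.2% and 37.2% in these classes. GC-rich windows hold GGGCGG more often whatever their use, so the shares of the GC box and the GC content are not separate observations.

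The genes with most counts were mitochondrial, glial and neuronal. Mitochondrial genes took 6.79% of counts in culture 1 (6.78 to 6.80), 9.81% in culture 2 (9.79 to 9.82) and 6.60% in culture 3 (6.59 to 6.61). Culture 2 stood above the other 2 by more than counting error. mt-Co1, a catalytic subunit of cytochrome c oxidase, led all genes at 21602 ± 4048 CPM (SD, n = 3). Mitochondrial genes have no introns, so they can be set side by side per kilobase. mt-Co1 had 13982 ± 2620 CPM per kb, mt-Co3 11667 ± 5101, mt-Cytb 10193 ± 3164 and mt-Nd5 2028 ± 731. The complex I subunit mt-Nd3 was the steady exception, with 4055, 3849 and 3859 CPM per kb in cultures 1, 2 and 3, while mt-Co3 had 8642, 17556 and 8803. The lowest of the 13 protein-coding genes was mt-Nd6, with 1502 ± 529 CPM per kb. mt-Nd6 lies on the other strand of a genome whose genes abut or overlap, and the library kit does not keep strand.

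Among nuclear genes, Scd, the desaturase that makes monounsaturated fatty acids, had the highest mean level, with 7304, 6578 and 7655 CPM in cultures 1, 2 and 3. Apoe, the lipid carrier secreted by astrocytes, followed with 9558, 7105 and 3701 CPM. Apoe was ahead of Scd in cultures 1 and 2 and behind it in culture 3. Scd ranged little between cultures (CV 7.65%) and Apoe by more than 2-fold (CV 43.3%). Cytoskeletal and growth genes of young neurons filled many of the next places. Map1b, a microtubule-associated protein of growing axons, had 2719.8, 4781 and 4505 CPM. Actb, Tubb2b, Tubb5, Stmn2, Dpysl2 and Crmp1, which encode actin, tubulins and tubulin-binding proteins, were also among the 20 nuclear genes with most counts. Those 20 also held Tmsb4x, Glul, Nnat, Psap, Ywhae, Eef2, Nsg2, Cst3, Ptprz1 and Rtn1. Gapdh had only 24.9, 33.0 and 27.4 CPM, but the rat genome holds many near-identical copies of it, so its count is uncertain.

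Counts of list members that were highest in 1 culture are read against all 13077 genes with a mean of at least 1 CPM, of which 33.1% were highest in culture 1, 38.2% in culture 2 and 28.7% in culture 3. The members counted include those with a mean under 1 CPM, which these shares leave out. Cell type composition was read from 15 marker lists with 147 different genes in the table. Of these genes, 120 reached a mean of 1 CPM and 3 had no count. The sum over a list can be compared between cultures and not between lists, because genes differ in length and in counts per cell. In a bulk culture, fewer cells of a type and less RNA per cell cannot be told apart. The label calls the sample hippocampal neurons, and markers of neurons and of astrocytes were both present in every culture.

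Neurons were present in every culture, and the summed level of their shared markers was lowest in culture 1. The 15 pan-neuronal markers summed to 6281, 10224 and 10196 CPM in cultures 1, 2 and 3, a range of 1.63-fold, and 14 of the 15 were highest in culture 2 or 3. Stmn2, a regulator of microtubules in growing neurites, had 1438, 2315 and 2249 CPM. Tubb3, the neuronal beta-tubulin, had 834, 1529 and 1791 CPM and Dcx, which marks young migrating neurons, 762, 1098 and 1353 CPM. Culture 1 was lowest for each of these 3 genes. Syt1, the calcium sensor of vesicle release, was the exception with 255, 235 and 231 CPM, and Elavl4, an RNA-binding protein of neurons, hardly moved at 57.8, 56.6 and 58.5 CPM.

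The vesicular glutamate transporter of cortex and hippocampus was the leading one. Slc17a7, the vesicular glutamate transporter VGLUT1, had 255, 359 and 432 CPM in cultures 1, 2 and 3, against 15.5, 16.6 and 12.3 CPM for Slc17a6, which encodes VGLUT2. The cortical and hippocampal transcription factors Neurod6 (177, 166 and 196 CPM) and Tbr1 (37.4, 43.6 and 42.1 CPM) differed little between cultures. Neurod1, a factor of immature granule neurons, ranged 6.33-fold, with 4.19, 16.5 and 26.5 CPM. Emx1 had 12.03, 27.0 and 25.4 CPM, and Neurod1 and Emx1 were the 2 members of the list that lay at least 2-fold lower in culture 1 than in both others, as were 0.684% of all 9649 genes with a mean of at least 10 CPM.

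Markers of hippocampal fields were low and did not move together. Prox1, which marks dentate granule cells, had 29.5, 8.88 and 18.9 CPM and was lowest in culture 2. Calb1, of dentate and CA1 neurons, had 27.8, 56.1 and 26.9 CPM and Bok, of CA3, 39.2, 93.9 and 49.0 CPM, and both were highest in culture 2. Fibcd1, a marker of mature CA1 neurons, had no count in any culture, and C1ql2, of dentate granule cells, stayed at 1.64, 2.69 and 1.34 CPM.

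The GABAergic list summed to 2843, 2382 and 2063 CPM in cultures 1, 2 and 3, with 13 of 21 members highest in culture 1 and 7 in culture 2. The transporter that loads GABA into vesicles, Slc32a1, had 99.3, 92.5 and 82.6 CPM. Slc17a6 and Slc17a7 together were 4.05 ± 1.33 times Slc32a1 in counts (SD, n = 3), with ratios of 2.73, 4.06 and 5.38 in cultures 1, 2 and 3. The ratio thus ranged 1.97-fold, and it does not give a ratio of cells. Gad1, the main enzyme of GABA synthesis, had 392, 216 and 239 CPM, whereas Gad2, its second form, had 83.9, 72.4 and 74.2 CPM.

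Interneuron subtypes were unevenly represented. Sst, the peptide somatostatin, had 131, 434 and 164 CPM and stood at least 2-fold higher in culture 2 than in both others, as did 4.59% of the 9649 genes. Reln, secreted by Cajal-Retzius cells and many interneurons, had 511, 197 and 266 CPM and was highest in culture 1, as were Tp73 (8.01, 3.34 and 3.27 CPM), a marker of Cajal-Retzius cells, and Vip (24.2, 7.25 and 4.57 CPM). Calb2, like Reln a member of both the GABAergic and the Cajal-Retzius list, was instead highest in culture 2 (169, 265 and 146 CPM). Pvalb, which appears late in basket cells, reached only 1.03, 0.407 and 0.236 CPM, and Npy 1.19, 6.92 and 2.36 CPM.

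Astrocyte markers were highest in culture 1 for 13 of 16 genes, and the list summed to 25977, 15255 and 12072 CPM. Gfap, the astrocyte intermediate filament, had 2630.2, 995 and 523 CPM in cultures 1, 2 and 3. Gja1, the gap junction protein connexin 43, had 1607, 387 and 573 CPM, and Glul, the enzyme that turns glutamate into glutamine, 4517, 1878 and 2073 CPM. Culture 1 was at least 2-fold above both others for these 3 of 15 members at or above 10 CPM, against 1.15% of the 9649 genes. Gfap over Tubb3 in counts was 3.15, 0.651 and 0.292, a range of 10.8-fold. From the lowest to the highest culture, 8 of the 15 members ranged at least 2-fold, against 14.5% of the 9649 genes. Apoe (2.58-fold) and Aldh1l1 (2.53-fold) were among the 8. Sox9 and Fgfr3 moved less. Sox9, an astrocyte and progenitor factor, had 50.2, 44.6 and 41.8 CPM and Fgfr3 105, 91.7 and 107 CPM, while Aldh1l1, a folate enzyme of astrocytes, was highest in culture 3 with 30.0, 22.6 and 57.2 CPM. Gjb6, connexin 30 of mature astrocytes, was near 0 in all 3. Vim, the filament of progenitors and reactive glia, followed Gfap with 2087, 844 and 751 CPM. It took 82.2%, 72.4% and 66.7% of the summed progenitor list in cultures 1, 2 and 3. Of the 7 members of that list, 5 were highest in culture 1. Hes5 (12.1, 27.5 and 30.0 CPM) and Nes (10.6, 14.7 and 14.1 CPM) were lowest there.

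The oligodendrocyte lineage showed the reverse, with 629, 1821 and 1427 CPM, and none of its 14 markers was highest in culture 1. Olig1 (239, 692 and 405 CPM) and Olig2 (129, 314 and 255 CPM), which act from the progenitor on, were 2.90-fold and 2.43-fold higher in culture 2 than in culture 1. Pdgfra, the growth factor receptor of oligodendrocyte precursors, had 82.7, 271 and 321 CPM. Sox10, a factor needed for differentiation (chr7:120387071-120397340, rn5), was nearly missing from culture 1, with 4.02, 86.8 and 54.4 CPM. Gpr17, a receptor of committed precursors, had 1.11, 53.0 and 42.6 CPM. It lies inside the span of Lims2, which had 0.575, 19.0 and 14.5 CPM, and without strand the reads of the pair cannot be assigned with certainty. Outside the list, Bcas1 (28.0, 182 and 167 CPM), Myrf (5.30, 32.7 and 29.1 CPM) and Nkx2-2 (2.01, 18.4 and 13.5 CPM), which mark cells on the way to myelination, had the same course. They were named for being among the 8 genes lowest in culture 1 relative to the other cultures. Their course was fixed by that choice and is no further support for the list.

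Genes of myelin did not share 1 order of cultures. Cnp, an enzyme of myelin-forming cells, had 119, 295 and 189.9 CPM and was highest in culture 2, and Mog, of the outer myelin surface, had 18.7, 13.8 and 21.3 CPM and was lowest there. Mbp, myelin basic protein, had 5.46, 14.3 and 45.9 CPM and was highest in culture 3. Mag, of the inner myelin membrane, was low but also highest in culture 3 (0.246, 0.815 and 3.66 CPM). Mobp, of late myelin, had only 1, 1 and 3 counts (0.0411, 0.0815 and 0.118 CPM).

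Microglial genes were scarce, and no member reached a mean of 10 CPM. All 15 were highest in culture 1, and they summed to 101, 17.5 and 8.74 CPM, an 11.5-fold range. The complement genes C1qa (18.3, 3.26 and 0.906 CPM), C1qb (16.8, 2.20 and 0.591 CPM) and C1qc (18.8, 1.71 and 1.02 CPM) led the list. The mean sum was 42.4 CPM, and 12.9 CPM without culture 1. P2ry12 and Tmem119, of resting microglia, stayed under 0.5 CPM in each culture.

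Other cell types left few counts. Choroid plexus and ependyma summed to 16.9, 13.4 and 102 CPM. Most of the sum in culture 3 came from Ttr, the thyroid hormone carrier that the choroid plexus secretes (chr18:15307563-15314777, rn5), which had 4.60, 1.79 and 80.9 CPM. Folr1, a folate receptor of the same epithelium, was also highest in culture 3 with 3.82, 4.73 and 14.8 CPM, whereas Kl, another of its markers, was near 0 in all 3. The rest of the list did not follow. Tekt1 was highest in culture 1 with 7.19, 5.21 and 4.77 CPM, and Aqp1 had 1.19, 1.63 and 1.61 CPM. Without culture 3 the mean sum was 15.0 CPM, against 44.1 CPM with it. Kdr, a receptor of endothelium, was high in culture 3 only (1.77, 1.06 and 18.3 CPM), but Cldn5, the endothelial tight junction gene, had no count in any culture, and Cdh5 and Emcn were at or near 0. The endothelial sum was 9.88 CPM, and 4.16 CPM without culture 3. Fibroblast genes such as Col1a1 (30.9, 40.2 and 31.6 CPM) and mural genes such as Tagln (105, 127 and 69.2 CPM) were present, Rgs5 was near 0, and the 5 blood markers summed to 0.57, 0.326 and 0.118 CPM. The 6 genes of dividing cells summed to 255, 287 and 254 CPM, with Top2a, which untangles replicated DNA, at 30.9, 58.9 and 35.4 CPM.

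**Figure D2:**
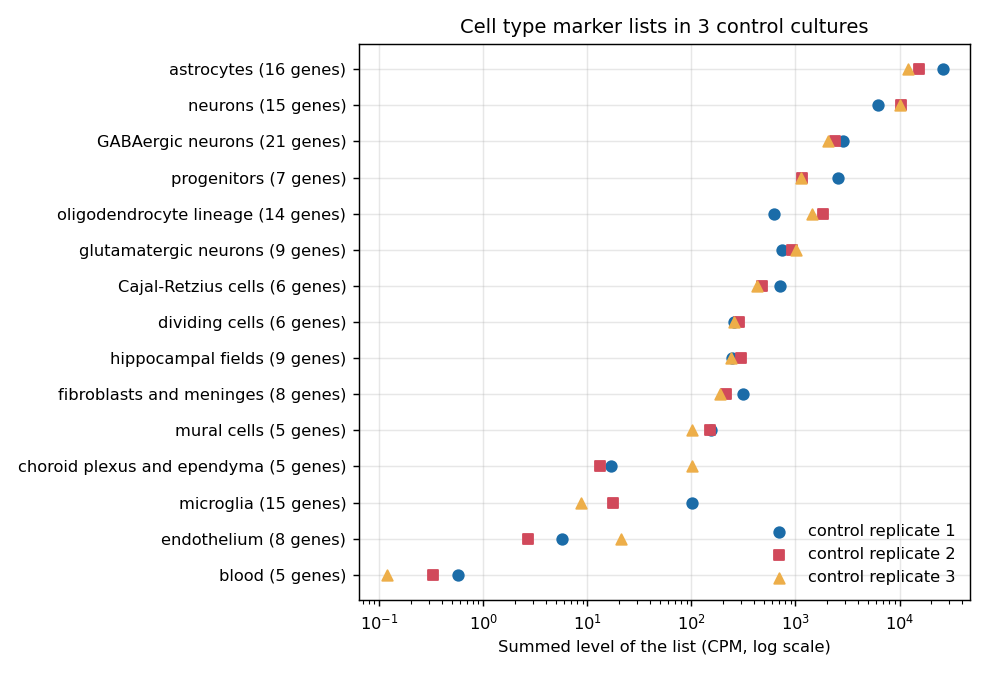
Summed level in CPM (log axis) of 15 marker lists, 1 point per control culture and list. Astrocytes, progenitors and microglia were highest in culture 1 (25977, 2540 and 101 CPM), the oligodendrocyte lineage was lowest there (629 CPM), and choroid plexus was highest in culture 3 (102 CPM); positions of different lists are not comparable.

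Receptor genes had a 2-fold range between cultures less often than cell type markers, as a description of the lists. Of 137 receptor and auxiliary genes in 26 families, 97 reached a mean of 1 CPM and 63 reached 10 CPM. Of these 63, 12 (19.0%) had a highest culture at least 2-fold above the lowest, against 14.5% of all 9649 genes at or above 10 CPM. Of 92 cell type markers at or above 10 CPM, 40 (43.5%) did. The median CV was 19.4% for the receptor genes, 30.3% for the cell type markers and 18.0% for all 9649 genes.

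AMPA receptors carry the fast excitatory current, and the subunit GluA2 keeps most of them impermeable to calcium. Gria2, which encodes GluA2, had 149.9, 278 and 177 CPM in cultures 1, 2 and 3, and Gria1, which encodes GluA1, 177, 148 and 204 CPM. Gria2 took 37.6%, 50.4% and 37.4% of the family's counts and Gria1 44.3%, 26.8% and 43.1%. Their order depended on the culture, with Gria2 ahead in culture 2 and Gria1 ahead in cultures 1 and 3. Gria4, a subunit of young and inhibitory neurons, held 54.2, 64.2 and 64.2 CPM and Gria3 17.7, 61.9 and 27.8 CPM, and this order was kept in all 3. Gria3 was the only one of the family at least 2-fold higher in 1 culture, number 2, than in both others.

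Among auxiliary proteins that traffic and tune AMPA receptors, Cnih2, a cornichon, had 199.8, 473 and 308 CPM. Shisa7 (133, 143 and 151 CPM) and Cacng4 (134, 152 and 136 CPM) were even between cultures. Cacng2, stargazin, had 17.9, 13.0 and 19.4 CPM and Cacng8 25.3, 29.5 and 33.8 CPM. All 12 auxiliary genes reached 1 CPM, and Cnih2 was the only one at or above 10 CPM with a 2-fold range.

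NMDA receptors need GluN1, and GluN2B gives way to GluN2A as synapses mature. Grin1, for GluN1, was even at 199, 166 and 194 CPM. Grin2b had 62.5, 96.5 and 61.0 CPM and took 59.3%, 76.9% and 64.4% of the counts of the 4 GluN2 genes. Grin2a had 11.7, 9.53 and 9.53 CPM, Grin2c 12.9, 6.27 and 14.3 CPM and Grin2d 18.3, 13.1 and 9.89 CPM. The order below Grin2b was not the same in all cultures. Grin3a, whose GluN3A subunit is typical of young neurons, had 52.7, 45.0 and 45.8 CPM, and Grin3b 10.8, 12.1 and 13.6 CPM.

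The 5 kainate receptor genes kept 1 order in each culture, Grik5, Grik3, Grik2, Grik4 and Grik1. Grik5 encodes a subunit that works only beside another kainate subunit, and it had 159, 199.5 and 209.7 CPM or 53.9%, 60.4% and 53.7% of the counts. Grik2, for GluK2, had 39.9, 29.7 and 60.3 CPM. The kainate auxiliary genes Neto2 and Neto1 had 69.5, 82.0 and 85.8 and 33.2, 44.8 and 48.3 CPM.

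Of the 8 metabotropic glutamate receptors, Grm5, the main postsynaptic receptor coupled to Gq, led in each culture with 93.3, 141 and 96.1 CPM, or 41.7%, 52.4% and 49.0% of the counts. Grm7, a presynaptic receptor, followed with 58.2, 43.8 and 44.9 CPM. Grm2 and Grm3, which lower cyclic AMP, moved in opposite ways. Grm3 had 11.5, 44.2 and 13.3 CPM, highest in culture 2, where it was level with Grm7, and Grm2 31.5, 7.82 and 12.2 CPM, highest in culture 1. Grm4, a presynaptic receptor like Grm7, was level at 10.1, 11.8 and 10.1 CPM, and Grm6 and Grm8 were the lowest of the family.

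GABA-A receptors are pentamers, most often of alpha, beta and gamma subunits. Gabra5, the alpha subunit of extrasynaptic receptors in hippocampal pyramidal cells, had 184, 121 and 222 CPM and 60.0%, 43.8% and 68.4% of the alpha counts, and led in each culture. Gabra2 was next with 44.9, 79.5 and 38.3 CPM and rose to its highest share in culture 2, 14.6%, 28.8% and 11.8% by culture. Gabra3 had 33.1, 26.4 and 21.8 CPM and Gabra4 21.8, 19.8 and 22.6 CPM, and Gabra6, which belongs to cerebellar granule cells, had 1 count in culture 3 and none in the others. The beta subunit gene Gabrb2 had 5.95, 20.0 and 5.51 CPM and was at least 2-fold higher in culture 2 than in both others. The gamma subunit gene Gabrg1 had 33.1, 38.5 and 18.0 CPM and was lowest in culture 3. Gabrd, of tonic receptors, had 4.97, 4.56 and 4.18 CPM, and none of the 6 genes of the epsilon, pi, theta and rho kinds reached 1 CPM in the mean.

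**Figure D3:**
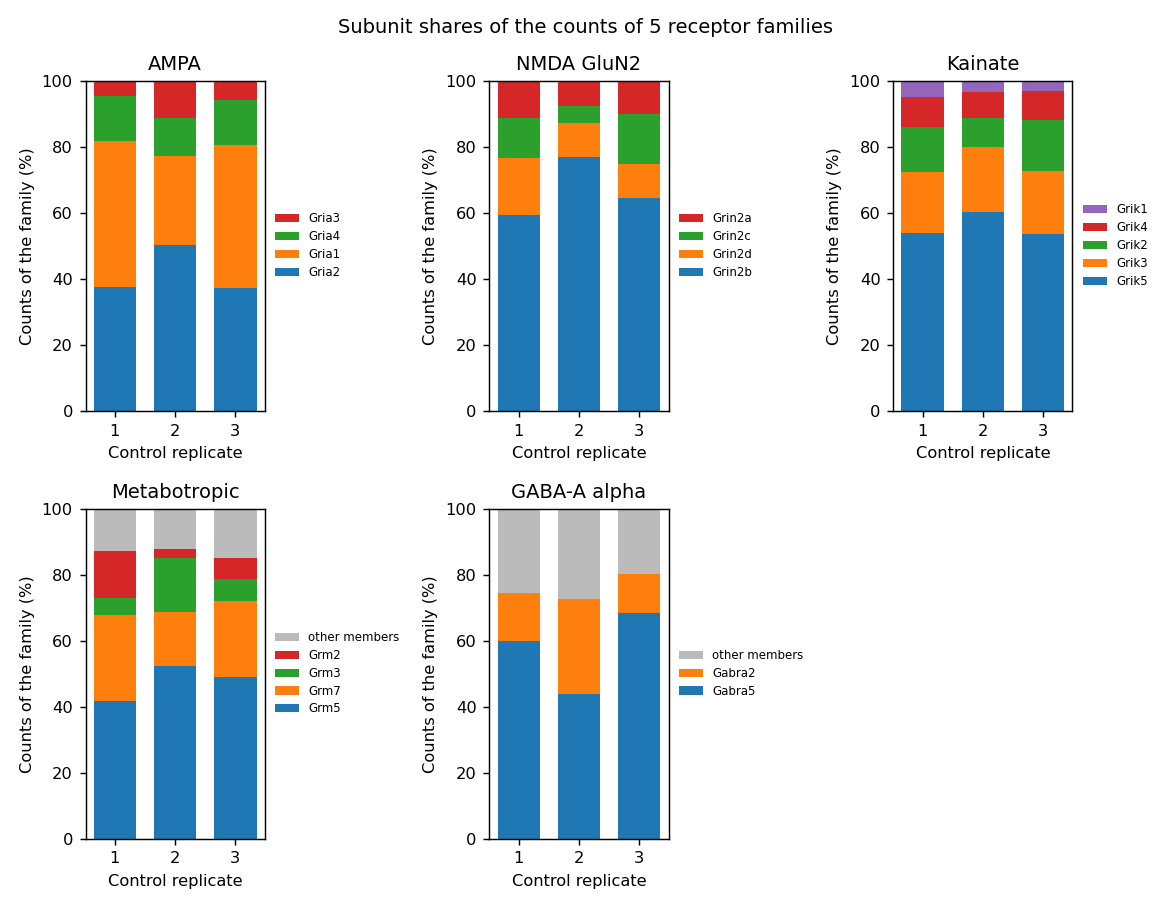
Share of the counts of 5 receptor families taken by subunit genes in control cultures 1, 2 and 3, as stacked bars from 0 to 100%, with some members of 2 families pooled in grey. Gria2 and Gria1 changed order between cultures (37.6%, 50.4% and 37.4% for Gria2), while Grin2b, Grik5, Grm5 and Gabra5 led their families in all 3; shares are of counts without correction for transcript length.

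GABA-B receptors pair GABBR1 with GABBR2. Gabbr1 (chr20:3996333-4025427, rn5) had 1142, 1133 and 1143 CPM, a CV of 0.468%, and was among the 10 named genes at or above 10 CPM with the lowest CV. Gabbr2, which carries the receptor to the membrane, had 202, 225 and 274 CPM. Gabbr1 was named as an extreme among 9649 genes, so its CV is no estimate of how well its level is known.

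Receptors for modulators were mostly low, with clear leaders. Cnr1, the cannabinoid receptor CB1 of interneuron terminals, had 587, 356 and 416 CPM, highest in culture 1 like Gad1 and Reln. Ntrk2, the receptor for BDNF that neurons and astrocytes both use, had 696, 417 and 419.8 CPM. Ntrk3, the receptor for neurotrophin-3, had 37.8, 44.1 and 49.4 CPM. Nicotinic counts came mainly from Chrnb2 (43.7, 49.9 and 52.3 CPM), Chrna4 (35.2, 42.2 and 39.3 CPM) and Chrna7 (25.4, 17.0 and 25.2 CPM). Adora1, the inhibitory adenosine receptor, had 52.1, 60.0 and 73.1 CPM, and Glrb, the beta subunit of glycine receptors that also binds gephyrin, 64.5, 92.3 and 76.8 CPM. Oprl1, the nociceptin receptor, had 23.6, 25.3 and 40.2 CPM, while Oprm1, Oprd1 and Oprk1 had means under 2 CPM. Drd1 and Drd2 had 9.03, 3.58 and 3.62 and 13.2, 6.35 and 6.34 CPM. No serotonin receptor gene reached a mean of 10 CPM, with Htr3a the first at 12.6, 7.58 and 6.30 CPM. Chrm2, Adora3 and Glra3 had no count in any culture.

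Genes that rise with maturation and earlier ones were compared in 4 pairs, as ratios of counts, so their size depends on transcript length. Scn1a over Scn3a, sodium channels of adult and of fetal neurons, was the most constant ratio at 0.157, 0.188 and 0.167 in cultures 1, 2 and 3. Grin2a over Grin2b was 0.187, 0.0988 and 0.156. In these pairs the later gene had fewer counts in each culture. The later gene had more counts in the remaining pairs. Slc12a5, the chloride exporter KCC2 that makes GABA inhibitory, over Slc12a2, the importer NKCC1, was 1.40, 1.91 and 1.60. Dlg4, for PSD-95, over Dlg3, for SAP102, was 3.14, 4.58 and 3.10. NKCC1 is also made by glia, so its share in neurons is not known from these data.

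The 16 neuropeptide genes in the table summed to 719, 1062 and 598 CPM in cultures 1, 2 and 3, highest in culture 2 through Sst and Cck (135, 209 and 79.9 CPM). By members, 9 of the 16 were highest in culture 1, among them Penk (39.5, 13.0 and 20.2 CPM) and Nts (21.4, 14.5 and 11.2 CPM), and 6 in culture 2. The 15 commonly used housekeeping genes summed to 7364, 8020.1 and 9871 CPM.

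The cultures differed from each other by far more than counting error. Over the 9649 genes with a mean of at least 10 CPM, the median CV was 18.0% (quartiles 11.3% and 28.0%), and the biological coefficient of variation estimated by edgeR over 13414 genes was 0.283. In 1403 genes (14.5%) the highest culture was at least 2-fold above the lowest. This count was 780 without culture 1, 342 without culture 2 and 1068 without culture 3, and the median CV was 10.8% without culture 2. A range over 2 cultures cannot exceed the range over 3, so a fall of the count was nearly fixed, and only its size differed. Cultures 1 and 3 were the closest pair, with a median absolute log2 difference of 0.22, against 0.38 for cultures 1 and 2 and 0.33 for cultures 2 and 3. Across genes, Spearman's correlation was 0.959 for cultures 1 and 3, 0.904 for 1 and 2 and 0.927 for 2 and 3. These values share genes of very different level and are descriptions.

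Each culture had its own set of genes. Culture 1 was at least 2-fold above both others for 111 genes (1.15%), culture 2 for 443 (4.59%) and culture 3 for 8 (0.0829%). Culture 1 was at least 2-fold below both others for 66 genes (0.684%), culture 2 for 65 (0.674%) and culture 3 for 43 (0.446%). With raw library totals in place of TMM scaling, the count for culture 2 was 289, so the size of this set depends on the scaling. It was the largest of the 3 sets under either.

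The genes highest in culture 1 relative to the others included genes of phagocytic cells and of astrocytes. Gpnmb, a lysosomal glycoprotein of phagocytic cells, had 153, 14.7 and 15.4 CPM in cultures 1, 2 and 3, and Pla2g7, which inactivates platelet-activating factor, 72.6, 6.92 and 9.93 CPM. Slc14a1, a urea transporter of astrocytes, had 131, 15.2 and 34.9 CPM, and Abca1, which loads lipid onto Apoe, 515, 106 and 154 CPM. Fcrl2, Mmp19, Vip and Ugt1a2 completed the 8 with the highest ratio. Summed microglial and astrocyte markers were highest in the same culture. Immediate early genes, switched on by activity or stress, were highest there for 11 of 14 genes, against 33.1% of all genes. Fos had 33.5, 11.7 and 7.01 CPM and was the only one of 7 members at or above 10 CPM that stood at least 2-fold above both others. Npas4 had 5.95, 2.12 and 2.01 CPM. The interferon-induced Stat2 (54.6, 32.4 and 33.8 CPM) and Mx2 (58.1, 10.3 and 22.9 CPM) were highest in culture 1, whereas Isg15 (5.54, 7.17 and 2.52 CPM) and Bst2 (1.44, 4.73 and 1.02 CPM) were highest in culture 2. Of the 16 interferon-induced genes 9 were highest in culture 1 and 7 in culture 2, and together they summed to 276, 147 and 124 CPM. The part of glial content in these levels was not tested.

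In culture 3 the set was small, and it was led by Ttr. Besides Mbp it held Matn2 (9.24, 5.87 and 28.8 CPM), an extracellular matrix protein, and Tnc (196, 225 and 579 CPM), the matrix protein tenascin C of glial progenitors. Cabp7 (5.13, 10.02 and 22.7 CPM) and Apcdd1 (15.4, 16.1 and 32.5 CPM) were the next. Fbln2 was the eighth of the named genes, with a ratio of 1.98, just under 2-fold. Lowest there relative to the others were Cebpd (16.8, 21.3 and 4.21 CPM), a factor of acute inflammation, and Lgals3 (15.6, 13.7 and 3.51 CPM), a lectin of activated microglia.

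**Figure D4:**
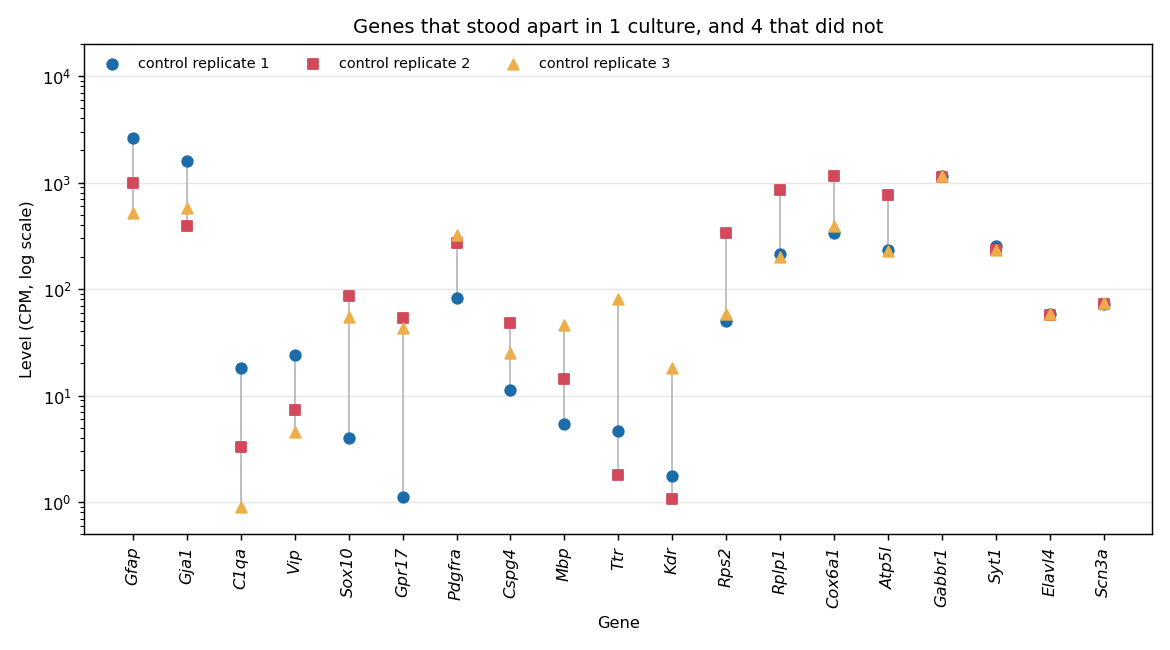
Level in CPM (log axis) of 19 genes in control cultures 1 (circle), 2 (square) and 3 (triangle), joined by a line from the lowest to the highest. Gfap to Vip were highest in culture 1, Sox10 to Cspg4 lowest in culture 1, Mbp to Kdr highest in culture 3 and Rps2 to Atp5l highest in culture 2, while Gabbr1, Syt1, Elavl4 and Scn3a ranged little (1141.5, 1133 and 1143 CPM for Gabbr1).

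In culture 2 the set was led by Vps13a (5.30, 32.6 and 4.10 CPM), a lipid transfer protein, Rps2 (50.3, 338 and 58.6 CPM), a protein of the small ribosomal subunit, and Eif4ebp1 (24.1, 116 and 9.45 CPM), a brake on translation. Cops2, Atf5, Mgmt, Atrx and Rplp1 followed. Atf5, a stress-responsive transcription factor, had 210.0, 914 and 107 CPM. The lowest in culture 2 relative to the others were Rpl30 (25.6, 4.64 and 23.0 CPM), Ccnl2 (124, 34.4 and 109 CPM) and Wsb1 (258, 52.0 and 157 CPM).

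Because of Rps2 and Rplp1, 2 further lists were drawn up by symbol after the values were seen. Both took only genes with a mean of at least 10 CPM, as for the 9649 genes, and the level in culture 2 enters that mean. Ribosomal protein genes summed to 8134, 17059 and 8078 CPM over 59 genes, of which 55 were highest in culture 2. At least 2-fold above both others there were 26, against 4.59% of the 9649 genes. The 26 include Rps2 and Rplp1, which prompted the list, so for these the outcome was fixed by the choice. Rps15 had 272, 994 and 301 CPM and Rplp1 211, 851 and 201 CPM. An exception was Rpl3, with 586, 545 and 581 CPM. Nuclear genes of oxidative phosphorylation summed to 10871, 19259 and 11206 CPM over 69 genes, with 63 highest in culture 2 and 25 at least 2-fold above both others, with 1 row counted for each symbol. Cox6a1, of cytochrome c oxidase, had 337, 1158 and 389.7 CPM and Atp5l, of ATP synthase, 234, 766 and 226 CPM, whereas the larger subunits Atp5b (1381, 1607 and 1551 CPM) and Sdha (174, 163 and 168 CPM) were level. Many ribosomal protein genes have near-identical copies in the genome, and 3 of 48 rows with a RefSeq promoter lay on another chromosome than the RefSeq gene, so single values of this family are uncertain.

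Level in culture 2 followed gene span. Over 6 classes of span, start to end with introns, the median log2 ratio of culture 2 to the other 2 cultures was 0.34 in genes of up to 5923 bases, 0.13 up to 12552, -0.03 up to 22626, -0.11 up to 39029, -0.15 up to 79926 and -0.09 beyond that. Culture 1 had -0.17, -0.06, 0.00, 0.04, 0.04 and -0.02 in the same classes, and culture 3 -0.19, -0.06, 0.01, 0.08, 0.09 and 0.09. The median span of the 443 genes of culture 2 was 7079 bases, against 22626 bases for all 9649 genes. A 2-fold range between cultures was seen in 26.0% of the shortest class and in 10.3% to 15.4% of the others. Culture 2 was also the library with the lowest depth and the highest mitochondrial share, and these features cannot be told apart with 1 such culture.

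**Figure D5:**
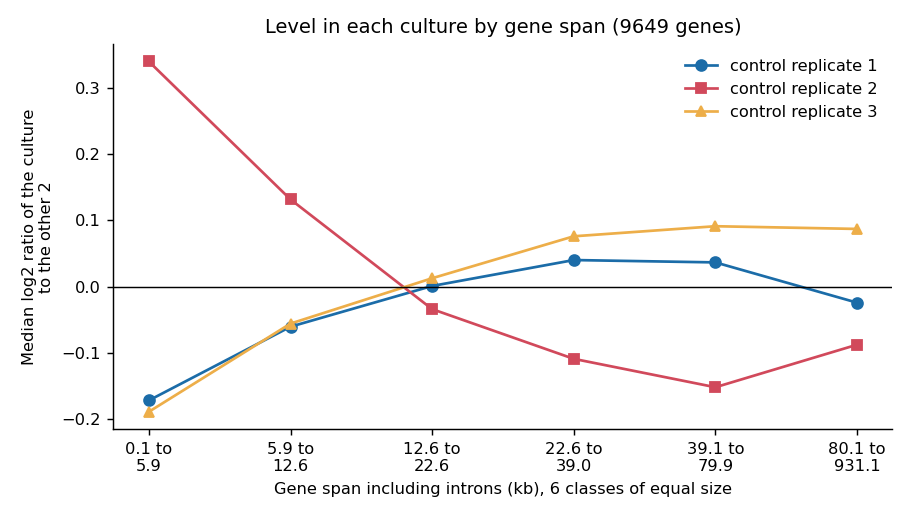
Median log2 ratio of each control culture to the geometric mean of the other 2, over 9649 genes in 6 classes of gene span in kb. Culture 2 lay at 0.34 in the shortest class and at -0.15 in the fifth, while cultures 1 and 3 lay at -0.17 and -0.19 in the shortest class.

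Ribosomal protein genes share a feature of their start site that the grouping by level did not use. Their messages begin with a terminal oligopyrimidine tract, a C followed by more pyrimidines, through which the mTOR pathway controls their translation. The promoters were searched on the gene's strand for a C followed by at least 4 more C or T, beginning within 5 bases of the annotated start. Such a tract was present in 27 of 45 matched ribosomal protein genes (60%), against 16.5% of 6783 promoters of genes at or above 10 CPM and 17.0% of all 12586. The windows below show the ribosomal protein gene with the highest ratio of culture 2 to the others and the 5 highest of those with a tract. Each runs from 50 bases before the start to 20 bases from the start on, 5′ to 3′ on the gene's strand, on GRCr8 from RefSeq, with the pyrimidine tract or TATAAA in capitals.
Rps2 (chr10:14251798-14251867, plus strand): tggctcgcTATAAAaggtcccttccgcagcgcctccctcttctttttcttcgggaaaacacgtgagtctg
Rplp1 (chr8:71290853-71290922, minus strand): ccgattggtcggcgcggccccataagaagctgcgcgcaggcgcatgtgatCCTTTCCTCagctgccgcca
Rps27 (chr2:177964587-177964656, minus strand): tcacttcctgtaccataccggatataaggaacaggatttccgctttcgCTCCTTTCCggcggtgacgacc
Rps21 (chr3:187723988-187724057, plus strand): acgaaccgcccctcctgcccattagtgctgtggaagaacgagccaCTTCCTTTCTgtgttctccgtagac
Rps15 (chr7:10068096-10068165, minus strand): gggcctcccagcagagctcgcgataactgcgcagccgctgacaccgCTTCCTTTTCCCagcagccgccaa
Rpl27a (chr1:172974523-172974592, plus strand): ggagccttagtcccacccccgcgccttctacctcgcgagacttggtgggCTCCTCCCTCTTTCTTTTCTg
Rps2 had TATAAA and no tract by this rule. A run of pyrimidines reaches its annotated start but begins more than 5 bases before it, so Rps2 was counted as without a tract. The tracts of the other 5 were 9 to 20 bases long. Among ribosomal protein genes the tract was not commoner in those that were high in culture 2. It was present in 10 of the 20 matched ribosomal protein genes at least 2-fold above both others in that culture, and in 17 of the other 25. Over the whole set of culture 2, 64 of 315 matched promoters (20.3%) had a tract, a little above the share of all genes. Nuclear oxidative phosphorylation genes had it in 9 of 49 (18.4%), near the share of all genes.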

How the data were processed

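RNA of the cultures was made into unstranded libraries (TruSeq RNA v2) and read from 1 end on a HiSeq2000. Per the labels and the submitters' processing notes, the tools included CASAVA 1.8.2, FastQC 0.10.0, STAR 2.3.0, SAMtools 1.2, HTSeq 0.6 and DESeq2 1.8.1, on the rat build rn5. The authors deposited whole-number counts per gene, not normalized. The 3 knockdown columns were not read, and columns of the authors' own comparisons were not used.

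CPM were computed on TMM-scaled library sizes with edgeR 4.0.16 in R 4.3.3, and summaries with Python 3.11.15, pandas 2.3.3 and scipy 1.17.1. Cultures were described by the mean, SD and CV. No test was run, since there is 1 group and no contrast between groups. Chi-square per degree of freedom only described how far the counts of 2 cultures lay apart. The steps were tested on simulated data. Spread was computed for genes with a mean of at least 10 CPM, and the dispersion for 13414 genes passing edgeR's filter on a minimum count of 10. Depth was 13061705 to 24874466 counts, and intervals on shares are 95% Wilson intervals.

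Lists held 357 different genes, of which 348 were matched by name. Of 26405 genes, 15872 had a symbol in the table, 2638 took a name from RefSeq by gene ID and 999 from the description. Promoters came from RefSeq on GRCr8, and only genes on the same chromosome as in the table were used. Named genes were receptor subunits, the leading and undetected list members, the 20 genes with most counts, the 10 with the highest and the 10 with the lowest CV, and the 8 with the highest ratio of each culture to the others. Members and lists were chosen with earlier results of these data known. The lists of ribosomal and oxidative phosphorylation genes, the genes lowest in a culture and the promoter motifs were chosen after their values were seen. The design called for levels per kb, but transcript lengths were not used here, so shares and ratios are of counts. Alternatives were other scalings, filters and leaving out each culture. Some genes that this rule covers are not reported here.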

Additional observations from a re-analysis of the deposited data

How the results depend on the processing

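Leaving out each culture gave 99 values, of which 3 moved further than the limits. The limits were the spread between cultures or, for counts of genes, 1.5 times. Those 3 were the median CV without culture 2 and the genes with a 2-fold range without culture 1 or 2. That the count of genes with a 2-fold range fell was nearly fixed, since fewer cultures cannot widen a range. For most of the other 96 the outcome was fixed, since dropping 1 of 3 cultures moves a mean by less than their SD. Microglial markers stayed within the limit although their mean sum fell from 42.4 to 12.9 CPM without culture 1. Of 34 other settings, 30 stayed within these limits and 4 did not. Without 1 culture the median CV ranged from 10.8% to 18.6% and the number of genes with a 2-fold range from 342 to 1068, both lowest without culture 2. With no filter on level the median CV was 27.6% in place of 18.0%, and from a mean of 1 CPM up the genes with a 2-fold range numbered 2635 in place of 1403, where more and lower genes enter. Over nuclear genes alone the 100 most abundant took 15.7% of counts in place of 21.0%, since the mitochondrial genes are left out. With no scaling factor, an alternative chosen after seeing the data, 289 genes were at least 2-fold above both others in culture 2 in place of 443, and with RLE size factors, chosen likewise, 443. No paired analysis was possible because all cultures belong to 1 group. Levels per kb of transcript or coding length were not run, as no such lengths were used here. At these depths a count of 0 leaves room for a level of up to 0.118 to 0.244 CPM, depending on the culture.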
